A study of Mus musculus with 6 samples.

Results

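The genes described here belong to the type I interferon response, and were followed in RNA-seq of hippocampal microglia from wild-type (WT) and Mll5+/- mice. The list holds 37 symbols and sets no threshold on a measured value. The deposited table of 11881 genes held 35 of them, 34 under the listed symbol and Rigi under its older symbol Ddx58. Mx1 and Mx2 were not analysed here. Ifi44 was left out of the test for low counts, so 34 of the 10832 tested genes are members of the list.

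Type I interferons are proteins that cells release on sensing viral or misplaced nucleic acid. They bind a shared receptor, whose kinases switch on the factor ISGF3, in which STAT2 and IRF9 take part. ISGF3 binds interferon-stimulated response elements near its target genes. The products of many targets block viral replication, and others sense nucleic acid or restrain the pathway. Microglia, the resident macrophages of the brain, carry the receptor and respond to interferon.

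Cells positive for CD11b and low in CD45 were sorted from hippocampi of males aged postnatal day 17 to 21, and no treatment is labelled. The groups were 3 libraries labelled WT and 3 labelled Mll5+/-, the latter heterozygous for a disruption of Mll5 (now Kmt2e). Every library carries an animal number of its own and was counted as 1 mouse. The sources used here name neither strain nor litter nor the disrupted part of the gene, and p-values measure the spread between these libraries. The libraries held between 21075570 and 29730400 counts. Kmt2e had 479.5, 378 and 688 CPM (counts scaled to a common, TMM-normalised library size) in WT replicates 1 to 3 and 648, 298 and 513 CPM in Mll5+/- replicates 1 to 3. Its log2 fold change, Mll5+/- against WT, was -0.08 (SE 0.314, edgeR unadjusted p = 0.799), so the whole-gene count did not separate the groups, and genotypes are named as labelled. Of 12 microglial genes looked at, 3 had a positive and 9 a negative log2 fold change. Tmem119, 1 of the 3, had between 197 and 232 CPM in the 6 libraries, with each Mll5+/- value above every WT value. P2ry12, 1 of the 9, ranged from 1087 to 5499 CPM, with each Mll5+/- value below every WT value.

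The response element is shown first, because it is a feature of the members that the expression values did not enter. Its core was searched as 2 copies of GAAA with any 2 bases between them, on both strands, with overlapping matches counted separately, in windows of 300 bases from 250 bases before to 50 bases after each gene start (RefSeq, build GRCm38.p6). Of the 28 members with a window, 16 held a match (57.1%, exact 95% interval 37.2% to 75.5%), against 1079 of all 27025 genes (3.99%). The interval treats members as independent, although Ifit3 and Ifit3b share their printed bases. With CT required right after the second GAAA, 10 members (35.7%) held a match, against 0.303% of all genes. From members that hold a match, 6 windows of genes with a wide or a narrow spread between libraries are printed 5′ to 3′ on the gene's strand, with matches on either strand in capitals.
Isg15, chr4:156200837-156200906, minus strand: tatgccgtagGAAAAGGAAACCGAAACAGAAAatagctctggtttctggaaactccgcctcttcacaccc
Ifit1, chr19:34640775-34640844, plus strand: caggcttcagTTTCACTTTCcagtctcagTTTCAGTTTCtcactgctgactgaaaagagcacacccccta
Ifit3, chr19:34583363-34583432, plus strand: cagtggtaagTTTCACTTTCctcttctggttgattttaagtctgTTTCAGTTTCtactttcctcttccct
Rsad2, chr12:26456513-26456582, minus strand: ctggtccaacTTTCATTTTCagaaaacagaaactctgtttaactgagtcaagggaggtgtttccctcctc
Slfn5, chr11:82951937-82952006, plus strand: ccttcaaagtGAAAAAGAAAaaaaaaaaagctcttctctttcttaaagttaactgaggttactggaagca
Stat2, chr10:128270266-128270335, plus strand: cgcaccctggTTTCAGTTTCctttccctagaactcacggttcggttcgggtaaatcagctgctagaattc

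Isg15 holds 3 overlapping matches, the first starting 78 bases before the gene start. Ifit1 holds 2 matches whose starts lie 19 bases apart, and Ifit3 holds 2 that lie 34 bases apart. The Ifit3b window at chr19:34607759-34607828 has the same 70 bases as that of Ifit3. Rsad2, Slfn5 and Stat2 hold 1 match each. Members with a window and no match were Ifit2, Irf7, Irf9, Oasl1, Oasl2, Ifi44, Xaf1, Phf11d, Slfn2, Ifi35, Sp100 and Lgals3bp. Oas2, Ifi27l2a, Ifi204, Usp18, Rtp4, Parp14 and Zbp1 had no entry.

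The interferon response genes differed more between mice of the Mll5+/- group than between genotypes. Mll5+/- replicate 2 had the highest CPM of 22 of the 34 tested members (64.7%), while the same library was highest for 15.4% of all tested genes. The lowest CPM lay in Mll5+/- replicate 1 for 10 members (29.4%) and in Mll5+/- replicate 3 for 12 (35.3%), against 14.2% and 21.9% of all tested genes. All 3 WT values lay inside the range of the Mll5+/- values for 18 members (52.9%), against 22% of all tested genes. No member passed the test between genotypes.

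To set the libraries side by side, the deviation of each member was taken as its log2 CPM minus its mean over the 6 libraries. Averaged over the 34 members, it was 0.01, 0.05 and 0.16 in WT replicates 1 to 3 and -0.65, 1.22 and -0.79 in Mll5+/- replicates 1 to 3. By this average the 3 WT mice lay close together, and the Mll5+/- mice lay on either side of them. The mean was 0.08 ± 0.078 in WT and -0.08 ± 1.12 in Mll5+/- (SD, n = 3 each), a difference of -0.15 against a pooled SD of 0.795. Single members varied more, with an SD over members of 0.64, 0.71 and 1.29 in WT and 1.58, 1.02 and 1.33 in Mll5+/-. Their median deviation was -0.06, 0.04 and 0.17 in WT and -0.34, 1.03 and -0.63 in Mll5+/-. Over all tested genes, the mean deviation was 0.07, 0.06 and -0.05 in WT and -0.03, 0.12 and -0.18 in Mll5+/-. The median over all tested genes was between 0.02 and 0.10 in each library. Summed over members, the level was 1435, 1496 and 1715 CPM in the WT libraries and 1334, 2538 and 1182 CPM in the Mll5+/- libraries. Of the 34 members, 32 were above their own mean in Mll5+/- replicate 2 and 8 in Mll5+/- replicate 3, against 57% and 51.1% of all tested genes.

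**Figure D1:**
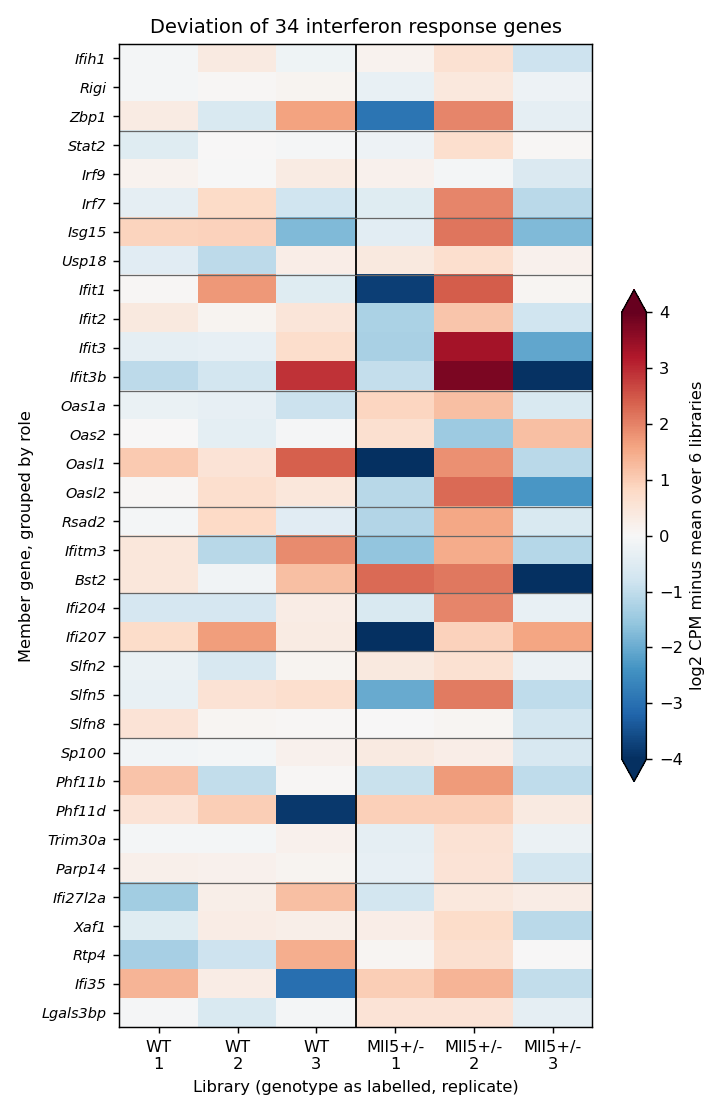
Deviation of each of the 34 tested members (rows) from its own mean log2 CPM over the 6 libraries (columns), as a colour scale in log2 units. The column of Mll5+/- replicate 2 lies above the mean for 32 of the 34 members, while 57% of all tested genes lie above their own mean in that library.

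**Figure D2:**
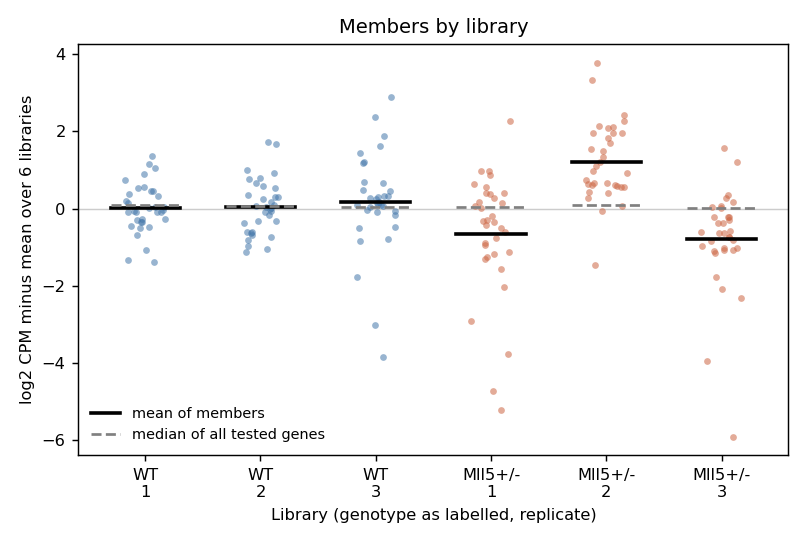
Deviation in log2 CPM (vertical axis) of the 34 tested members, 1 point each, in the 6 libraries (horizontal axis), with their mean as a solid line and the median of all tested genes as a dashed line. The members' mean is 1.22 in Mll5+/- replicate 2 and between -0.79 and 0.16 in the other 5 libraries.

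The 4 members of the IFIT family, which bind viral RNA or join complexes that do, lie together on chromosome 19 from 34528094 to 34627409 (mm39, as for all gene positions). All 4 were highest in Mll5+/- replicate 2. Ifit1 had 6.48, 21.0 and 4.44 CPM in WT replicates 1 to 3 and 0.394, 34.2 and 6.62 CPM in Mll5+/- replicates 1 to 3. Ifit2 had 17.9, 14.5 and 19.0 CPM in the WT libraries and 5.68, 29.2 and 7.75 CPM in the Mll5+/- libraries. For both genes the Mll5+/- values included the highest and the lowest of all 6, so the groups overlapped. Ifit3 had 4.56, 4.66 and 9.47 CPM in WT and 2.33, 59.6 and 1.32 CPM in Mll5+/-. Ifit3b had 0.502, 0.654 and 8.92 CPM in WT and 0.552, 16.5 and 0 CPM in Mll5+/-. Here 41.1% of the 75-base stretches of Ifit3 transcripts also occur in Ifit3b, so the split of reads between the pair is uncertain. The log2 fold changes were 0.37 (SE 1.25) for Ifit1, -0.27 (SE 0.677) for Ifit2, 1.76 (SE 1.31) for Ifit3 and 0.76 (SE 1.99) for Ifit3b. Their edgeR unadjusted p-values were 0.775, 0.699, 0.216 and 0.712.

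The OAS family holds enzymes whose product switches on RNase L when double-stranded RNA is present, and proteins related to them. Its 4 members did not share 1 order of libraries. Oasl2 (chromosome 5, 115034997 to 115050295) had 15.1, 23.5 and 20.2 CPM in WT and 6.71, 70.8 and 2.88 CPM in Mll5+/-, and so, like the IFIT genes, was highest in Mll5+/- replicate 2. Its neighbour Oasl1 had 4.22, 2.92 and 10.6 CPM in WT and 0, 7.20 and 0.898 CPM in Mll5+/-, and so was highest in WT replicate 3. Oas1a had 2.38, 2.27 and 1.56 CPM in WT and 5.29, 6.74 and 1.84 CPM in Mll5+/-, but 47.6% of its 75-base stretches also occur in Oas1g. Oas2 (chromosome 5, 120868398 to 120887918) went the other way, since Mll5+/- replicate 2 was its lowest library. It had 7.23, 5.46 and 6.94 CPM in WT and 11.05, 2.56 and 16.6 CPM in Mll5+/-. The log2 fold changes were 0.45 (SE 1.04) for Oasl2, -1.13 (SE 1.69) for Oasl1, 1.16 (SE 1.17) for Oas1a and 0.62 (SE 0.797) for Oas2, with edgeR unadjusted p-values from 0.350 to 0.675.

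Among the transcription factors, the 2 subunits of ISGF3 on the list varied less between mice than the median member. Stat2 (chromosome 10, 128106445 to 128128718) had 52.7, 75.1 and 70.5 CPM in WT and 64.0, 116 and 76.4 CPM in Mll5+/- (log2 fold change 0.37, SE 0.315, edgeR unadjusted p = 0.269). Irf9 (chromosome 14, 55841028 to 55847487) had 44.8, 40.8 and 51.4 CPM in WT and 46.0, 38.8 and 27.5 CPM in Mll5+/- (log2 fold change -0.29, SE 0.337, edgeR unadjusted p = 0.419). Irf9 was thus not high in Mll5+/- replicate 2, where Stat2 was highest. Irf7, the factor that amplifies interferon production, had 6.397, 14.05 and 4.72 CPM in WT and 5.80, 32.2 and 3.83 CPM in Mll5+/-. The pooled SD within a genotype was 0.292 for Irf9, 0.367 for Stat2 and 1.28 for Irf7 on the log2 scale, against a median of 1.07 over the members.

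The cytosolic sensors RIG-I (Rigi), which detects viral RNA ends, and MDA5 (Ifih1), which detects long double-stranded RNA, were also highest in Mll5+/- replicate 2. Rigi (chromosome 4, 40204849 to 40239828) had 108, 116 and 121 CPM in WT and 92.0, 151 and 97.6 CPM in Mll5+/-. Ifih1 had 37.3, 50.6 and 35.1 CPM in WT and 43.5, 60.1 and 22.1 CPM in Mll5+/-. Both genes kept within 1.44 log2 units over the 6 libraries, a smaller range than the IFIT genes. Zbp1, a sensor of left-handed nucleic acid, had at most 2.21 CPM. In the p200 family, whose proteins bind DNA, the neighbours Ifi204 and Ifi207 on chromosome 1 had different orders. Ifi204 had 17.98, 17.97 and 35.5 CPM in WT and 18.7, 113 and 23.3 CPM in Mll5+/- (log2 fold change 1.11, SE 0.694, edgeR unadjusted p = 0.144). Ifi207 had 14.6, 27.8 and 10.9 CPM in WT and 0.158, 16.6 and 25.9 CPM in Mll5+/-. Its lowest value rests on 4 counts, and 13.2% of the 75-base stretches of Ifi204 occur in other genes.

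ISG15 is a small ubiquitin-like protein, and Usp18 removes it from other proteins and also restrains signalling at the receptor. Usp18 (chromosome 6, 121222865 to 121247876) had the smallest p of the members. It had 23.0, 15.3 and 38.3 CPM in WT and 41.9, 49.96 and 35.5 CPM in Mll5+/-, so WT replicate 3 lay above Mll5+/- replicate 3 and the groups overlapped (log2 fold change 0.74, SE 0.424, edgeR unadjusted p = 0.118). Isg15 was close to the detection limit, with 10, 11 and 0 counts in WT and 3, 31 and 0 counts in Mll5+/-. Ifi44, which was not tested, had 0 counts in the 3 WT libraries and 13, 89 and 0 counts in the Mll5+/- libraries. Rsad2 encodes viperin, an enzyme that makes a chain-terminating nucleotide. It had 23.7, 44.3 and 18.3 CPM in WT and 11.3, 73.5 and 16.5 CPM in Mll5+/-.

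The Schlafen genes, which restrict growth and viral replication, lie on chromosome 11 from 82842921 to 82961504. Slfn5 had 26.8, 49.6 and 52.8 CPM in WT and 8.09, 141 and 16.3 CPM in Mll5+/-, with the highest and the lowest library both in the Mll5+/- group. Slfn2 had 52.6, 40.8 and 68.0 CPM in WT and 83.4, 96.1 and 54.2 CPM in Mll5+/- (log2 fold change 0.53, SE 0.334, edgeR unadjusted p = 0.145). Slfn8 had 149, 108 and 107 CPM in WT and 103, 108 and 62.1 CPM in Mll5+/- (log2 fold change -0.41, SE 0.293, edgeR unadjusted p = 0.194). The 3 neighbours thus had 3 different orders of libraries. Slfn8 was the member of smallest p on the lower side.

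The other members showed the same mixture. Trim30a, a TRIM protein that restrains inflammatory signalling, had 525, 533 and 624 CPM in WT and 438, 832 and 478 CPM in Mll5+/-. Parp14, an ADP-ribosyltransferase, had 125, 122 and 118 CPM in WT and 86.4, 159.7 and 64.5 CPM in Mll5+/-. Both put 2 Mll5+/- libraries under every WT library and the third above every one. Lgals3bp, a secreted glycoprotein, had 55.4, 37.6 and 54.1 CPM in WT and 83.8, 84.4 and 44.1 CPM in Mll5+/- (log2 fold change 0.53, SE 0.351, edgeR unadjusted p = 0.166). Bst2, or tetherin, which holds budding virus at the cell surface, had the widest range of log2 CPM of the tested members, set by its library at 0 and so by the prior count. It had 6.31, 4.12 and 10.8 CPM in WT and 22.5, 19.9 and 0 CPM in Mll5+/-. Ifitm3, which blocks viral entry, was highest in WT replicate 3, as were Rtp4 and Ifi27l2a. Xaf1 and Phf11b were highest in Mll5+/- replicate 2, Phf11d in WT replicate 2, Ifi35 in WT replicate 1 and Sp100, a nuclear body protein, in Mll5+/- replicate 1.

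**Figure D3:**
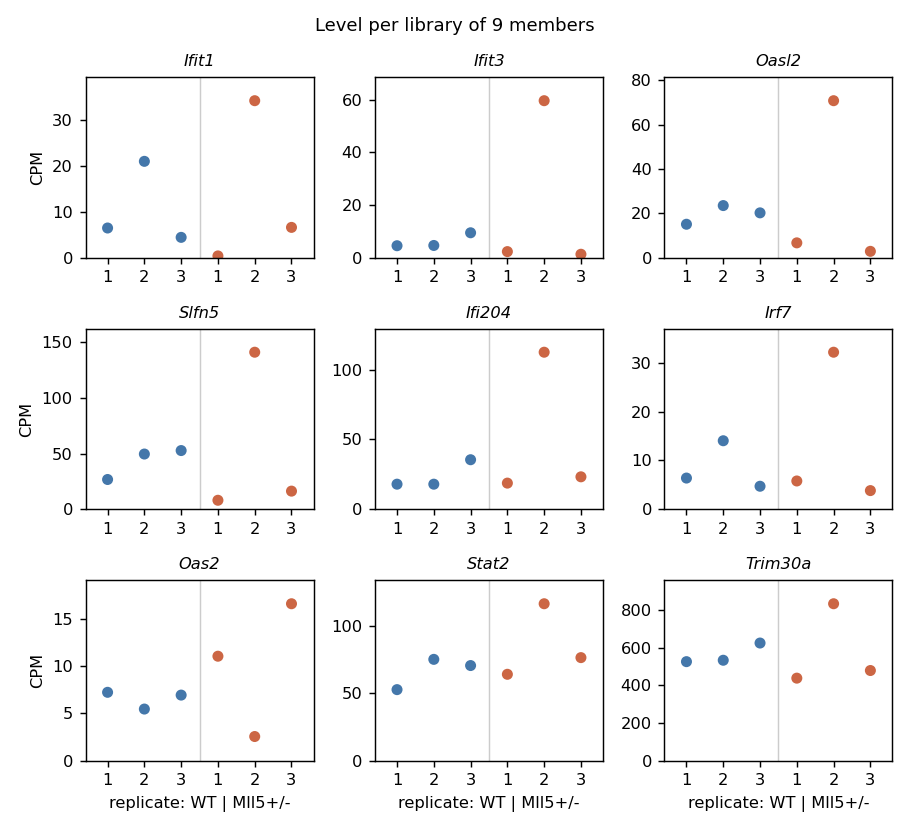
CPM of 9 members in each library, 1 panel per gene with its own linear axis from 0 and 1 point per library coloured by genotype; the 9 were chosen after their values were seen. In Slfn5 the Mll5+/- points run from 8.09 to 141 CPM, beyond the WT points on both sides.

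**Figure D4:**
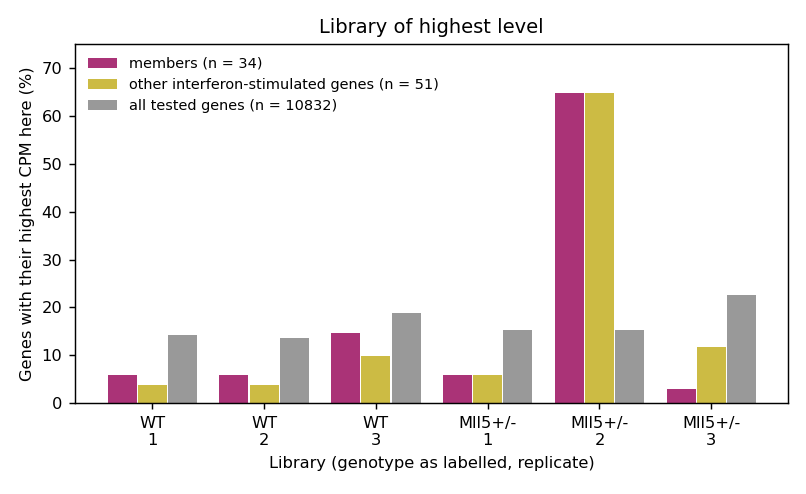
Share of genes, in percent, whose highest CPM lay in each of the 6 libraries, for the members, for other interferon-stimulated genes (n = 51) and for all tested genes. The members' bar is 64.7% in Mll5+/- replicate 2 and at most 14.7% in any other library. The bar of the other interferon-stimulated genes is also 64.7% in Mll5+/- replicate 2.

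Between genotypes, no member was called by edgeR's quasi-likelihood test (adjusted p = 0.9995 for each), and 0 of all 10832 tested genes (0%) were. At an unadjusted p under 0.05 there were 0 members, against 2.88% of all tested genes. DESeq2 also called 0 members, and so did limma-voom. No member had groups without overlap, against 4.68% of all tested genes on the higher side in Mll5+/- and 4.64% on the lower side. The fitted log2 fold change was positive for 23 members and negative for 11, with a median of 0.29, against 0.02 over all tested genes. The mean of log2 CPM, in which a single high library weighs less, was lower in Mll5+/- for 22 of the 34, against 5542 of all 10832 tested genes. The 2 measures had opposite signs for 13 members (38.2%), against 9.68% of all tested genes, so no direction is given for the list.

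Spread within a genotype exceeded the difference between genotypes for most members. The median pooled SD was 1.07 log2 units over the members and 0.725 over all tested genes, while the median size of the difference was 0.48 and 0.43. The difference exceeded the pooled SD for 7 members (20.6%), against 27.2% of all tested genes. These 7 were Irf9, Oasl1, Oas1a, Usp18, Slfn2, Slfn8 and Lgals3bp. The spread was larger in the Mll5+/- group: the median SD was 0.58 among WT mice and 1.25 among Mll5+/- mice, against 0.59 and 0.67 over all tested genes. It was larger in Mll5+/- for 29 of the 34 members (85.3%), against 55.9% of all tested genes. For the members' mean deviation, the spread rested on 1 library. Its pooled SD was 0.795 with all libraries and 0.0906 without Mll5+/- replicate 2. Whether the spread differs between the genotypes was not tested.

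**Figure D5:**
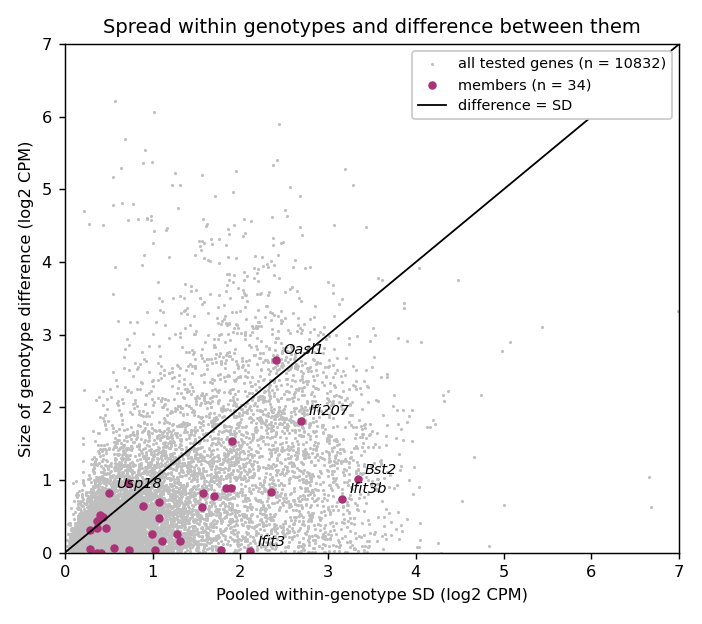
Size of the difference between genotype means (vertical axis) against the pooled SD within a genotype (horizontal axis), both in log2 CPM, with the 34 members in colour, all tested genes in grey and a line where both are equal. The 7 members above the line include Usp18 and Slfn8.

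Members varied together. Across the 6 libraries, the median Pearson correlation between 2 members was 0.39, with 78.8% of 561 pairs positive, against -0.01 and 49.6% over all tested genes. With the genotype means removed it was 0.48, with 80% of pairs positive. These values describe 6 libraries that all pairs share, and they rest in part on 1 of them: without Mll5+/- replicate 2 the median was 0.17. The 24 members with a mean of at least 10 CPM were highest in Mll5+/- replicate 2 in 17 cases (70.8%), so the pattern was not limited to sparse genes. Of the 16 tested members with a response element in the window, 12 were highest in that library (75%), and of the 11 without, 6 were (54.5%). That difference was not tested.

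Mll5+/- replicate 2 was the highest library for 22 of the 34 members, so leaving it out was bound to lower their Mll5+/- level. With all libraries, the mean of log2 CPM was lower in Mll5+/- for 22 of the 34, against 5542 of all 10832 tested genes. Without Mll5+/- replicate 2, the log2 fold change was positive for 8 members and negative for 26, with a median of -0.40, and 51.5% of all genes were negative. At an unadjusted p under 0.05 there were 3 members (8.82%), against 4.47% of all genes, and 0 passed after adjustment. They were Oasl2 (log2 fold change -2.04, SE 0.709, edgeR unadjusted p = 0.0213), Slfn5 (log2 fold change -1.84, SE 0.554, edgeR unadjusted p = 0.0111) and Parp14 (log2 fold change -0.70, SE 0.283, edgeR unadjusted p = 0.0392). Groups without overlap on the lower side numbered 11 of 34 members, against 1245 of 11177 genes (11.1%). The difference exceeded the pooled SD for 18 of 34, against 4267 of 11177 genes (38.2%). The members' mean deviation was then 0.27, 0.29 and 0.41 in WT and -0.41 and -0.57 in Mll5+/-.

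Other genes of the pathway were looked at by list, with the 3 genes of highest mean CPM and any gene of unadjusted p under 0.05 named. The 21 listed interferon genes were not analysed here. Of 10 listed genes for receptors and JAK-STAT signalling, 9 were tested, 0 had an unadjusted p under 0.05, and 5 had a positive and 4 a negative log2 fold change (median 0.06). Mll5+/- replicate 2 was the highest library for 1 of the 9 (11.1%). Ifngr1, the ligand-binding chain of the interferon-gamma receptor, had 732, 1027 and 1832 CPM in WT and 1031, 1565 and 1446 CPM in Mll5+/-. Ifngr2 ranged from 719 to 1167 CPM and Jak1, the kinase both receptors share, from 352 to 465 CPM.

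Further induced genes, which are not members, were also mostly highest in Mll5+/- replicate 2. The 55 found of 70 listed summed to 3333, 3393 and 3968 CPM in WT and 3419, 5336 and 3425 CPM in Mll5+/-. By the sum, unlike for the members, Mll5+/- replicates 1 and 3 were thus not the lowest. Over the 51 tested, the mean deviation was -0.11, 0.06 and -0.12 in WT and -0.15, 0.79 and -0.48 in Mll5+/-. Of these 51, 33 (64.7%) were highest in Mll5+/- replicate 2. Their log2 fold change was positive for 37 and negative for 14 (median 0.24). Trim34a was the 1 gene with an unadjusted p under 0.05, with 105, 68.4 and 59.5 CPM in WT and 125, 163 and 95.4 CPM in Mll5+/- (log2 fold change 0.72, SE 0.314, edgeR unadjusted p = 0.0472). Of the 3 with highest mean CPM, Trim30d had 482, 501 and 457 CPM in WT and 408, 698 and 498 CPM in Mll5+/-. Tent5a and Dtx3l were highest in Mll5+/- replicate 2 too, at 793 and 712 CPM. Paired with members, these genes had a median correlation of 0.33.

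The upstream and restraining lists are given by the same counts. Sensors and adaptors of interferon induction had 14 positive and 5 negative log2 fold changes among 19 tested, 6 of them (31.6%) highest in Mll5+/- replicate 2. Cgas, the DNA sensor that feeds STING, had between 349.6 and 452 CPM, and Aim2 was lowest in Mll5+/- replicate 2 at 137 CPM. Unc93b1, which carries Toll-like receptors to endosomes, was highest there at 343 CPM. Interferon regulatory factors had 4 positive and 5 negative among 9, with Irf8 at 706 CPM in Mll5+/- replicate 2 and up to 1062 CPM in WT. Irf2bp2 had 871 CPM in that library and Irf2 had 106 CPM. Negative regulators had 7 positive and 1 negative among 8, and 0 were highest in Mll5+/- replicate 2. Pias1, Ptpn6 and Ptpn1 had 338, 173 and 134 CPM there. GTPases of the interferon-gamma response had 5 positive and 6 negative among 11, with 3 (27.3%) highest in that library. Their mean deviation was 0.61, 0.67 and 0.01 in WT and -1.65, 1.06 and -0.71 in Mll5+/-. By it Mll5+/- replicate 2 was highest and Mll5+/- replicates 1 and 3 lowest, as for the members. Of the 12 found, 3 had 0 counts in Mll5+/- replicate 1. The sum was also highest in Mll5+/- replicate 2, at 718 CPM. In that library the mean deviation was 0.32 for sensors and adaptors, 0.11 for regulatory factors and -0.13 for negative regulators. Of the GTPases, Gbp7 had 365, 268 and 505 CPM in WT and 349.6, 496 and 311 CPM in Mll5+/-. Gbp3 had 67.3 and Irgm2 33.2 CPM in Mll5+/- replicate 2. In none of these 4 lists did a gene reach an unadjusted p under 0.05.

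Markers of cell types and quality values were set beside the high library, as a sum of CPM, which a few abundant genes can carry, and as a mean deviation, in which each tested gene counts alike. In bulk RNA, fewer cells of a type and less RNA per cell cannot be told apart. The 12 microglial markers summed to 24578, 22967 and 25148 CPM in WT and 19046, 16015 and 16307 CPM in Mll5+/-. Sparc, the most abundant of them, was the 1 marker whose lowest library was Mll5+/- replicate 2, and Mll5+/- replicate 3 was lowest for 5. Their mean deviation in Mll5+/- replicates 1 to 3 was -0.04, -0.13 and -0.24. P2ry12, Gpr34 and Sparc had a negative log2 fold change with an edgeR unadjusted p of 0.0103, 0.00711 and 0.0117. These are 3 of the 12 markers, against 2.88% of all tested genes under 0.05, and none passed after adjustment (edgeR adjusted p = 0.9995 for each). P2ry12 had 4269, 1366 and 5499 CPM in WT and 1115, 1232 and 1087 CPM in Mll5+/-, so WT replicate 2 lay near the Mll5+/- libraries.

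Several lists of other cell types were ordered like the members within the Mll5+/- group by 1 measure and not by the other. Border macrophage markers, 6 of 10 found, had a mean deviation of 0.52, 1.49 and -0.52 in Mll5+/- replicates 1 to 3 and between -0.89 and 0.03 in WT, so Mll5+/- replicate 2 was the highest of the 6. Their sum was 322, 328 and 265 CPM in WT and 417, 369 and 692 CPM in Mll5+/-, most of it from Stab1 and Mrc1. Both of these were highest in Mll5+/- replicate 3. The mean deviation covers the 5 tested genes. Among them Lyve1 and Ms4a7 had 0 counts in some libraries, where the prior count set their log2 values. Lyve1 was highest in Mll5+/- replicate 2 at 16.3 CPM, and Cd163 had 0.176 CPM there and 0 in 3 libraries. Dendritic markers, 8 of 10 found and the member Bst2 among them, had a mean deviation of -0.81, 0.81 and -1.88 in the Mll5+/- libraries and between -0.17 and 1.09 in WT. Of the 8, 0 were without a count in Mll5+/- replicate 2 and 5 in Mll5+/- replicate 3. Their sum was between 703 CPM, in Mll5+/- replicate 2, and 1180.5 CPM, in Mll5+/- replicate 3, and was carried by Tcf4 and by Siglech, which is also on the microglial list. Monocyte and neutrophil markers, 6 of 12 found, had a mean deviation of -0.22, 0.48 and -1.84 in the Mll5+/- libraries and between -1.55 and 1.69 in WT, with sums between 196 and 278 CPM. Among them S100a9, Camp and Ngp had 0 counts in some libraries, so the prior count entered this mean as well. The lymphocyte list was represented by Il7r, at 129 CPM in Mll5+/- replicate 2, and the B cell list by 1 gene, at 16.4 CPM there, its highest library.

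Astrocyte markers, 10 of 13 found, summed to 492, 412 and 593 CPM in WT and 270, 570 and 357 CPM in Mll5+/-, so Mll5+/- replicates 1 and 3 were lowest by the sum, as for the members. Their mean deviation in the Mll5+/- libraries was -1.27, -0.41 and 0.29. Gja1 and Plpp3 had a negative log2 fold change with an edgeR unadjusted p of 0.00250 and 0.0131, and neither passed after adjustment. Neuronal markers, 6 of 12 found, had a mean deviation of -1.26, 0.88 and 1.04 in the Mll5+/- libraries, with sums between 182 and 245 CPM. Oligodendrocyte and endothelial markers had a mean deviation of -0.74 and -0.64 in Mll5+/- replicate 2, and sums of 132 and 17.0 CPM there. Genes induced by cell dissociation summed to 1077 CPM in Mll5+/- replicate 2, within a range of 640 to 1089 CPM. Mitochondrial genes took 1.88% of the counts in that library, the lowest of the 6, and 3.55% in Mll5+/- replicate 3, the highest. Genes with a count numbered 11035, 11031 and 10797 in WT and 10696, 11053 and 10487 in Mll5+/-. By that number Mll5+/- replicate 2 was highest and Mll5+/- replicates 1 and 3 lowest, as for the members' mean deviation. Mll5+/- replicate 3 also held the fewest counts in total, 21075570. The part of these values in the members' levels was not tested.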

How the data were processed

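RNA-seq was made from sorted hippocampal microglia of 3 mice labelled WT and 3 labelled Mll5+/-, with TRIzol extraction and SMART-seq amplification, per the labels' protocols. The authors deposited whole-number counts per gene symbol with mm39 coordinates. The tools named are STAR, StringTie, DESeq2 and FastQC, per the submitters' processing notes, and no source used here gives versions, counting step or strand. The columns of per-sample values left unused numbered 0.

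Genes were kept by filterByExpr (minimum count 10, minimum total count 15), which left 10832 and removed 1049. The main test was edgeR's robust quasi-likelihood test (edgeR 4.0.16, limma 3.58.1, R 4.3.3) with TMM scaling and Benjamini-Hochberg adjustment at a threshold of 0.05, two-sided. It was tried on counts simulated at the dispersion of these data. After adjustment it called 0 of 46 genes changed 2-fold, 2 of 47 changed 4-fold and 21 of 46 changed 8-fold. The absence of a call therefore does not exclude changes of these sizes. Log2 CPM used a prior count of 2. At these depths 3 counts correspond to between 0.104 and 0.142 CPM. SEs come from the fit and carry the spread between libraries, while the interval of the motif share is binomial over genes. Alternatives were DESeq2 1.42.0, limma-voom, other scalings, filters and prior counts, 1 surrogate variable (sva 3.50.0) and leaving out each library.

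The members and lists were chosen with earlier results of these data known. Values in all 6 libraries are given for the members with the 4 smallest p in each direction, the 4 of highest mean CPM, the 4 of widest range, the IFIT, OAS and p200 families and ISGF3; values of other members were added after they were seen. From pathway lists, the 3 genes of highest mean CPM and those with p under 0.05 are named. Near-identical copies were looked for as shared stretches of 75 bases in the reference transcripts.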

Additional observations from a re-analysis of the deposited data

How the results depend on the processing

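No member passed the adjusted threshold in any setting run. Members with an unadjusted p under 0.05 numbered 0 in edgeR, 2 in limma-voom with sample weights and 1 with 1 surrogate variable, and between 0 and 3 when each library was left out. Leaving out each library gave a log2 fold change of Ifi204 from -0.20 to 1.52 (1.11 with all libraries), reversed without Mll5+/- replicate 2. The same gave Parp14 from -0.70 to 0.0075 (-0.23 with all), reversed without Mll5+/- replicate 3. The members' median log2 fold change ran from -0.40 without Mll5+/- replicate 2 to 0.51 without Mll5+/- replicate 3. The pooled SD of the members' mean deviation was between 0.0906 without Mll5+/- replicate 2 and 0.922, and the median pairwise correlation between 0.17 and 0.53. The members whose difference exceeded the pooled SD numbered between 5 and 18. The stricter motif lowered the share of members with a response element to 35.7%. No paired analysis was possible because the replicate numbers only follow the order of the samples. Isg15, Ifi44, Zbp1, Oasl1, Bst2 and Ifit3b have 0 counts in at least 1 library, and Ifi207 has 4 in 1, where the prior count or a few counts set the log2 values and ranges.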
